A study of Mus musculus with 12 samples.

Results

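Among 12 liver libraries of tumour-bearing mice, 4 contained transcripts of H2-Ea-ps and 8 contained none, and all genes were compared between these 2 sets of libraries. The libraries with H2-Ea-ps were chosen by a level of at least 1 CPM (counts scaled to library size, here to total counts), and they were library 1 from a mouse housed at 6 °C, libraries 7 and 8 at 22 °C and library 9 at 29 °C. The libraries without H2-Ea-ps were 3 at 6 °C (libraries 2, 3 and 4), 2 at 22 °C (libraries 5 and 6) and 3 at 29 °C (libraries 10, 11 and 12). All 12 came from wild-type mice that carried orthotopic tumours of E0771, a mouse mammary carcinoma line, and livers were taken at day 21. The mice had been acclimatised to their housing temperature, and the growth protocol names both Balb/C and C57Bl6/J recipients without saying which animals gave these livers. The 2 sets are therefore not groups of the study, their strain cannot be told from the labels, and the labels do not say whether each library is a separate mouse, so every p-value here reflects only how these libraries vary.

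H2-Ea encodes the alpha chain of the class II major histocompatibility (MHC) molecule I-E, which pairs with the beta chain encoded by H2-Eb1 and presents peptides to CD4+ T cells. C57BL/6 mice carry a deletion that prevents transcription of this gene, and the reference annotation, built on C57BL/6J, lists it as a pseudogene, whereas BALB/c mice transcribe it. Inbred mouse strains also differ in clustered gene families in which copies have been gained, lost or altered, among them the Ifi200 genes of intracellular DNA sensing, the Trim5-like antiviral genes, the Serpina protease inhibitors of the liver, the major urinary proteins and the class I MHC genes. The comparison asks which liver genes moved with the presence of H2-Ea-ps.

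The promoters of 6 genes from families described below are shown. Transcripts of Ifi202b moved in the opposite direction to those of Ifi206 and Ifi213, and those of H2-K1 and H2-Q7 were lower to different extents. H2-Eb1, shown for the class II genes, had a log2 fold change close to those of H2-Ab1 and Cd74. The windows run from 250 bases before to 50 bases after the annotated start and were taken from RefSeq on the GRCm38.p6 build, which represents C57BL/6J. Capitals mark GAAANNGAA, a core of the interferon-stimulated response element, in Ifi206 and Ifi213, Ifi200 genes of chromosome 1 on the minus strand, and the window of their relative Ifi202b, on the same strand, holds none. Of the 11 Ifi200 genes with a window, 8 held this motif on either strand in at least 1 window. Of all 32851 windows, counted singly, 8.56% hold it, and since Ifi203 and Mndal have 2 windows each the count of genes and this share are not in the same unit. Capitals mark GGGATTCCC, a kappa B element, in H2-K1 (minus strand) and H2-Q7 (plus strand), a motif that 0.353% of windows hold on either strand. Capitals mark CTGATTGG, the Y box of class II genes, in H2-Eb1 (plus strand), a motif that 4.10% of windows hold on either strand. The H2-K1 and H2-Q7 windows also hold it on the other strand, as CCAATCAG. It is left in lower case there, since capitals mark 1 motif per gene. A match is a string of letters in the reference sequence and not a measured binding site.
Ifi202b, chr1:173982795-173983094: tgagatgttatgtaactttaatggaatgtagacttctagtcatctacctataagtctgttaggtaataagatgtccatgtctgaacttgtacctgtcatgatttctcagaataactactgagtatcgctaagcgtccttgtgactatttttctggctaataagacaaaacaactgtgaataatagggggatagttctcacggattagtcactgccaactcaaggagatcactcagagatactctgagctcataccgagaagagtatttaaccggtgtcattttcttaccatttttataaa
Ifi206, chr1:173491269-173491568: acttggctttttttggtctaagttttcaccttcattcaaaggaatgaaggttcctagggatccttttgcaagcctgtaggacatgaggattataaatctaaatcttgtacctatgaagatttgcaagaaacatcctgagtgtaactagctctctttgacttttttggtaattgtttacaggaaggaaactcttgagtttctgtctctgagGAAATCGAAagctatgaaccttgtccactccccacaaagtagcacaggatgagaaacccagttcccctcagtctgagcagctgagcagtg
Ifi213, chr1:173599223-173599522: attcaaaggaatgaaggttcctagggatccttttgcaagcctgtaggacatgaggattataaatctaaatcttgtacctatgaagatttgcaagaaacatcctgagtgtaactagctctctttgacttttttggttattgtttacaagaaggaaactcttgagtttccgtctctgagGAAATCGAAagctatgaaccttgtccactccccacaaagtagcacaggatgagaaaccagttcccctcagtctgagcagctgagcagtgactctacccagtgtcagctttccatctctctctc
H2-K1, chr17:34000298-34000597: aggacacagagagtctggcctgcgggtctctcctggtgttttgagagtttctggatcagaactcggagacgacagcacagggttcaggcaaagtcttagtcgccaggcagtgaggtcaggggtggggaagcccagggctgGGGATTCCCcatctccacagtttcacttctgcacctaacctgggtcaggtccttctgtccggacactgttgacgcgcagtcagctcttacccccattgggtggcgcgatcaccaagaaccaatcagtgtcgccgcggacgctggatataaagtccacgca
H2-Q7, chr17:35438905-35439204: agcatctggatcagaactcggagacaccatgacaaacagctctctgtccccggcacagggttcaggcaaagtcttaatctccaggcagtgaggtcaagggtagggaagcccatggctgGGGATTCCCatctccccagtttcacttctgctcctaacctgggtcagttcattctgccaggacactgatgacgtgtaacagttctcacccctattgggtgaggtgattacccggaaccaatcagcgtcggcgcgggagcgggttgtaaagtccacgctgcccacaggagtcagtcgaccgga
H2-Eb1, chr17:34305617-34305916: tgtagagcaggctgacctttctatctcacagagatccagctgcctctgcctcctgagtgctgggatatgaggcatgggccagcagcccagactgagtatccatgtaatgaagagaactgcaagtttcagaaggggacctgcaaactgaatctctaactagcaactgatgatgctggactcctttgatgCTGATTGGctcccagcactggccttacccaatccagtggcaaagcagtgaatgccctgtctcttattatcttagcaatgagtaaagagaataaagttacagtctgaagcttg

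H2-Ea-ps (chr17:34341959-34344645, minus strand) had 17.1 CPM of total counts in library 1, 16.8 in library 7, 15.5 in library 8 and 11.8 in library 9, from 227, 248, 191 and 134 counts. The 8 libraries without it had 0 counts, which allows a level of at most 0.158 to 0.394 CPM at 3 counts per library. No library lay between these ranges, so the threshold of 1 CPM decided no assignment. The values of H2-Ea-ps chose the libraries and carry no test. Total counts lay between 7615585 and 19001126 per library. Mitochondrial ribosomal RNA made up 0.662% to 2.27% of counts in the 4 libraries with H2-Ea-ps and 0.0668% to 0.342% in the 8 without. The long non-coding RNA Gm26917 made up 4.03% to 8.70% with and 0.606% to 6.34% without, its lowest values being in libraries 3, 5 and 6. Fits without libraries 3, 5 and 6 and with other library sizes are given below. The part of these RNA measures in the results was not tested.

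**Figure D1:**
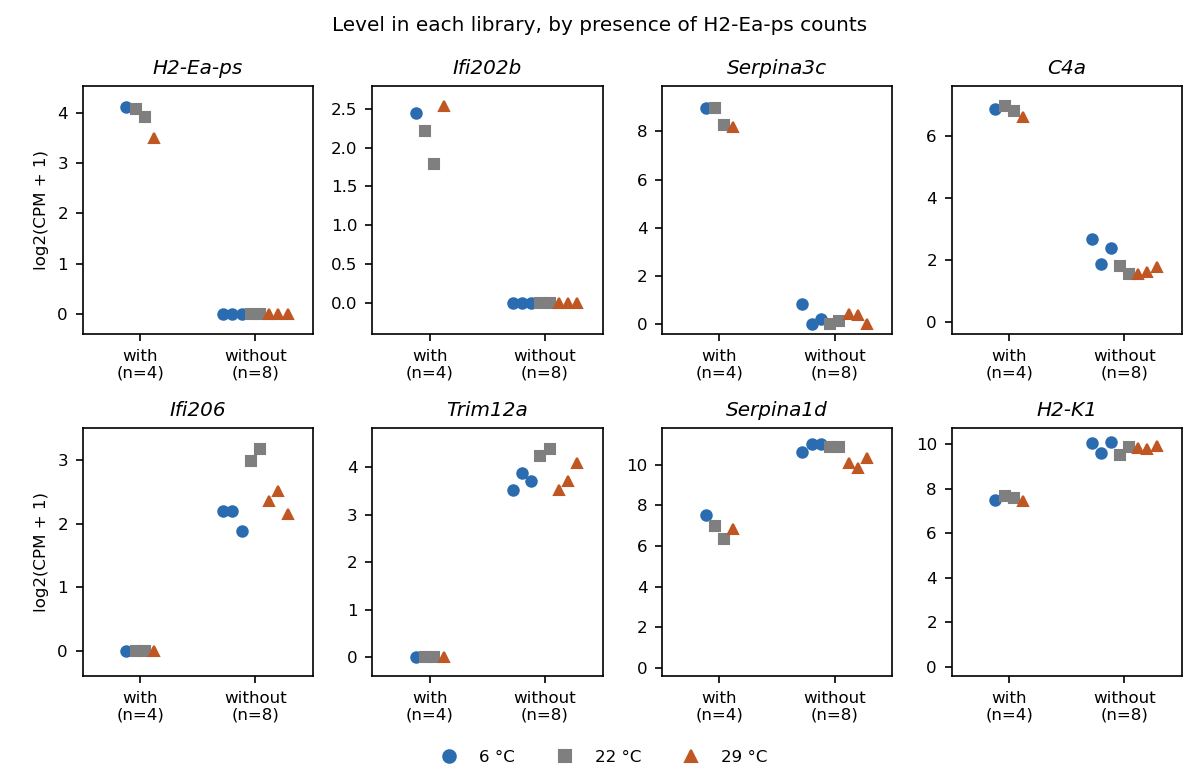
Level of 8 genes in each library as log2(CPM + 1), where each point is 1 library, its shape and colour give the housing temperature, and the 4 libraries with H2-Ea-ps stand left of the 8 without. H2-Ea-ps and Ifi202b were at 0 in all 8 libraries without, and Ifi206 and Trim12a were at 0 in all 4 libraries with. H2-Ea-ps chose the sets, and the other genes shown were picked with their values known. That none of the 8 overlapped between the sets is therefore no result, and of all genes tested 1443 (9.37%) did not overlap.

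With housing temperature as a term, 3455 of 15406 genes tested passed an adjusted p under 0.05 in edgeR's quasi-likelihood test (22.4%), 1718 higher (11.2%) and 1737 lower (11.3%) in the libraries with H2-Ea-ps. The median log2 fold change over all genes tested was 0.03. The first principal component held 38.0% of the variance and ran from 28.3 to 57.9 in the 4 libraries with H2-Ea-ps and from -38.2 to -2.27 in the 8 without. Among the 8 without, libraries 10, 11 and 12 at 29 °C lay at -8.22 to -2.27 and the others at -38.2 to -25.3. Among the 4 with, library 1 at 6 °C was lowest and library 9 at 29 °C highest. The 38.0% is thus not the share of the split alone. Since the sets were found in these same data, a p-value here describes how closely a gene follows the split, and the shares called are a background for the gene groups below. Of the 3455 calls, 3364 had the same sign of the within-temperature difference in log2(CPM + 1) at 6, 22 and 29 °C. The libraries compared there are those that gave the calls. Of all genes tested, 1443 (9.37%) did not overlap between the sets, and 1354 (8.79%) were called without overlap. At a log2 fold change of at least 2 in either direction, 495 (3.21%) were called, 283 higher (1.84%) and 212 lower (1.38%). Leaving out libraries in turn gave 2479 calls (without library 9) to 3576 calls (without library 2), and 1721 of the 3455 calls were kept in all 12 such fits. Without libraries 3, 5 and 6, which leaves no library without H2-Ea-ps at 22 °C, there were 2048 calls. Named genes that lost their call there included H2-Eb1, Cd74, Ctss, H2-Q2, Mup6, Tgtp1, Ces1f, Cd36, Alb, Ctsg and Lck. Nnt, not called in the full fit, was called there. With library sizes counted without mitochondrial genes, Gm26917 and the 10 most abundant genes, the median moved to 0.21 and the calls were 3177 higher and 1028 lower.

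**Figure D2:**
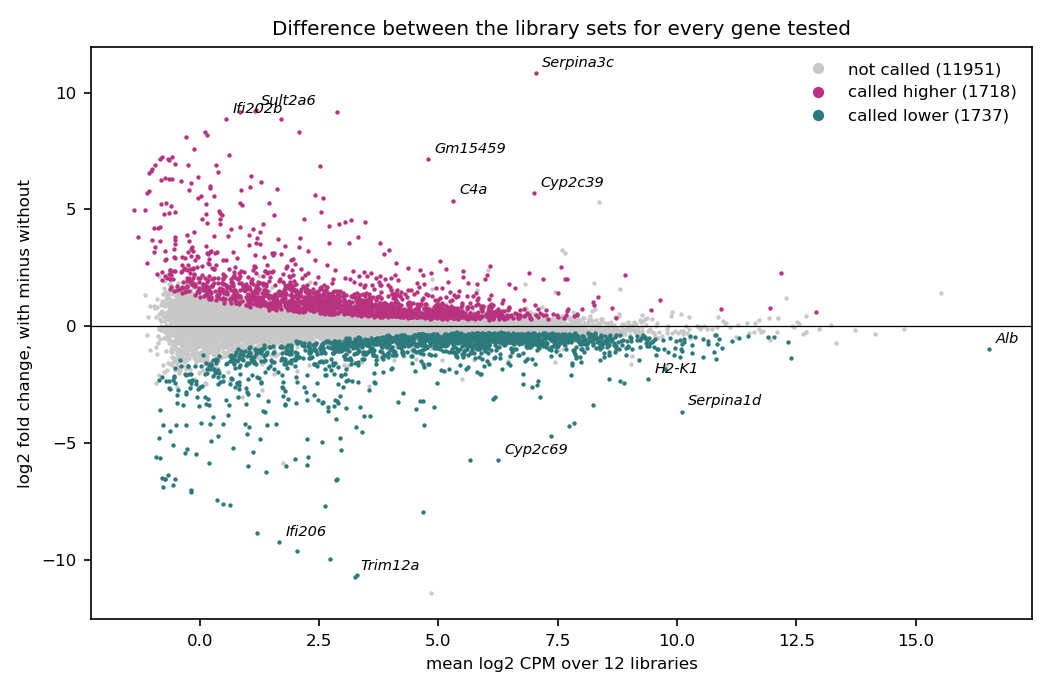
Log2 fold change of libraries with minus libraries without H2-Ea-ps for each gene tested, against its mean log2 CPM over the 12 libraries, with called genes coloured by direction. The 1718 genes called higher and the 1737 called lower include single genes more than 9 log2 units from 0, such as Serpina3c at 10.84 and Trim12a at -10.73.

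Besides H2-Ea-ps, 14 genes had counts in 1 set only, which is given as a description without a test. These genes are among those tested and counted above. Those confined to the libraries with H2-Ea-ps, at 1 CPM of total counts or more in each, were 7, and those confined to the libraries without were 7. Ifi202b (chr1:173962568-173982744, minus strand) had 4.67, 3.86, 2.67 and 5.46 CPM of total counts in libraries 1, 7, 8 and 9, which is at least 150-fold above a floor of 3 counts over the other set. Sult2a6, a steroid sulfotransferase gene (chr7:14222403-14254870), had 3.43 to 9.71 CPM with H2-Ea-ps and was at least 239-fold higher. Eno1b, an intronless relative of the enolase gene Eno1, had 4.13 to 7.48 CPM (at least 186-fold), and Ifi44l, an interferon-stimulated gene, had 2.19 to 3.52 CPM (at least 106-fold). The other 3 were Gm10503, Gm7292 and Gm5828. In the other direction, Trim12a (chr7:104299894-104315466, minus strand) had 0 counts in all 4 libraries with H2-Ea-ps and 9.96 to 19 CPM (median 12.9) in the 8 without, at least 229-fold lower. Ifi206 (chr1:173468485-173491041, minus strand) had 0 counts with and 2.55 to 7.71 CPM (median 3.70) without, at least 75.0-fold lower. Tafa2, which encodes a secreted chemokine-like protein, had 0 counts with and 6.42 to 11.6 CPM without, at least 162-fold lower. Olfr1034, an olfactory receptor gene, had 0 counts with and 1.5 to 6.60 CPM without, and Rab6b, a vesicle transport gene, had 0 counts with and 1.09 to 2.94 CPM without. The remaining 2 were A730017L22Rik and Gm43305.

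MHC genes on chromosome 17 differed by gene and not as a block. H2-K1, the classical class I heavy chain at the K locus, had 182, 201, 191 and 172 CPM in libraries 1, 7, 8 and 9, the order used for all values that follow, against 734 to 1081 CPM (median 918) in the 8 libraries without H2-Ea-ps. The sets did not overlap, and the log2 fold change was -2.29 ± 0.14 (SE, adjusted p = 3.14e-08). H2-Q7, a non-classical class I gene, had 1.66, 1.41, 2.31 and 2.08 CPM with and 22.1 to 51.1 CPM (median 40.4) without, a log2 fold change of -4.24 ± 0.25. H2-Q1 was lower by the same measure at -2.30, with 1.31 to 3.02 CPM against 5.06 to 19.8 CPM. H2-D1, the classical class I heavy chain at the D locus, had 342, 367, 361 and 326 CPM with and 405 to 606 CPM (median 544) without, a log2 fold change of -0.58 ± 0.13. H2-Q2, singled out after its values were seen, went the other way, with 25.1, 23.9, 21.7 and 19.1 CPM with H2-Ea-ps. Of the libraries without it, library 11 had 12.1 CPM and the other 7 had 0.0923 to 0.953 CPM, and the log2 fold change was 4.53 ± 1.10 (adjusted p = 0.0191), with adjusted p of up to 0.104 when library 1, 5 or 6 was left out. Of 28 measured genes of class I presentation and peptide loading, 9 were lower, 4 higher and 15 not called, with a median log2 fold change of -0.23. Reads of class I genes can fall on more than 1 near-identical copy, and the counting program is not given in the sources used here, so single class I values are uncertain.

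Class II genes, which are transcribed mainly in antigen-presenting cells, were lower or not called in the libraries that held H2-Ea-ps. H2-Eb1, whose product pairs with that of H2-Ea, had 10.4, 14.2, 15 and 12.7 CPM with and 15.3 to 45.6 CPM (median 26.3) without. Its log2 fold change was -1.12 ± 0.34 (adjusted p = 0.0366), and the call was lost when library 1, 6, 7, 8, 9 or 10 was left out (adjusted p up to 0.145). H2-Ab1, the beta chain of I-A, had 18.0, 14.8, 16.0 and 15.2 CPM with and 23.9 to 62.4 CPM (median 29.4) without. Cd74, the invariant chain that escorts class II molecules, had 55.4, 56.3, 64.3 and 49.5 CPM with and 71.5 to 214 CPM (median 103) without. These sets did not overlap for either gene, and the log2 fold changes were -1.26 and -1.25, with adjusted p of 0.0114 and 0.0108, each lost without library 9 (0.05 and 0.0537). H2-Aa, the alpha chain of I-A, did not pass, with 12.8 to 21.4 CPM against 18.7 to 55.2 CPM and an adjusted p of 0.0639. Of 10 measured class II and assembly genes, 6 were lower and none higher (median -1.13), the lowest p belonging to Ctss, the lysosomal protease cathepsin S, at -1.17. Dendritic cell markers summed to 54.0 to 75.2 CPM with and 63.4 to 146 CPM without, and B cell and plasma cell markers to 32.3 to 50.7 CPM and 40.5 to 167 CPM. In these bulk libraries, fewer cells of a type and less RNA per cell cannot be told apart, and the part of cell numbers in the class II difference was not tested.

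The Ifi200 genes of chromosome 1 encode cytosolic and nuclear proteins that bind nucleic acids and are induced by interferon. Beyond Ifi202b and Ifi206, given above, Ifi213 had 0.288, 0, 0 and 0.154 CPM with H2-Ea-ps and 2.51 to 10.7 CPM (median 6.16) without, with a log2 fold change of -5.96 ± 0.58 (adjusted p = 5.32e-06). Ifi206 and Ifi213, whose reference windows share the string GAAATCGAA marked above, were both at or near 0 in the libraries with H2-Ea-ps. Ifi202b, whose window holds no such match, was at 0 in the libraries without. The windows of Ifi209 and Aim2 hold no match either, and a link between the motif and the direction of change was not tested. Of 13 measured family members, 8 were lower, 1 higher and 4 not called, with a median log2 fold change of -1.31. The family summed to 49.7 to 66.9 CPM with and 58.1 to 185 CPM without. Members of this family are close in sequence, so reads of one can be credited to another.

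The Trim genes of chromosome 7 lie beside each other and include relatives of the retroviral restriction factor Trim5. Trim30d had 1.51, 1.53, 0.895 and 0.540 CPM with H2-Ea-ps, against 13.7 to 18.8 CPM (median 15.6) without, a log2 fold change of -3.85 ± 0.24. Trim34a was also lower at -2.11, with 1.54 to 2.98 CPM against 5.96 to 14.2 CPM. Their neighbours Trim5 and Trim34b were singled out after their values were seen. Trim5 had 0.0720 CPM in library 1 and 0 in the other 3 with H2-Ea-ps, against 0.635 to 2.84 CPM without. Trim34b had 1.58, 3.19, 3.58 and 1.77 CPM with, against 0 to 0.543 CPM without, so that paralogs of 1 cluster moved in opposite directions. Of 12 measured genes of this cluster, 5 were lower, 2 higher and 5 not called.

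The Serpina clusters of chromosome 12 encode secreted protease inhibitors, including the alpha-1 antitrypsin paralogs Serpina1a to Serpina1e. Serpina3c had the highest log2 fold change among protein-coding genes called whose mean log2 CPM reached 1 and whose sets did not overlap. It had 493, 496, 307 and 284 CPM with H2-Ea-ps and 0 to 0.797 CPM (median 0.135) without, a log2 fold change of 10.84 ± 0.40 (adjusted p = 1.14e-08). Serpina3h had 9.65, 13.7, 7.76 and 11.1 CPM with and 0.203 to 1.25 CPM without, a log2 fold change of 3.78. Serpina1d, one of the markers of the split, went the other way with 181, 126, 78.7 and 112 CPM with and 899 to 2051 CPM (median 1716) without. Of 18 measured members, 7 were higher, 5 lower and 6 not called. The summed level was 10026 to 13531 CPM with and 8512 to 15080 CPM without, which overlapped. These paralogs are close in sequence and their single values are uncertain in the same way.

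**Figure D3:**
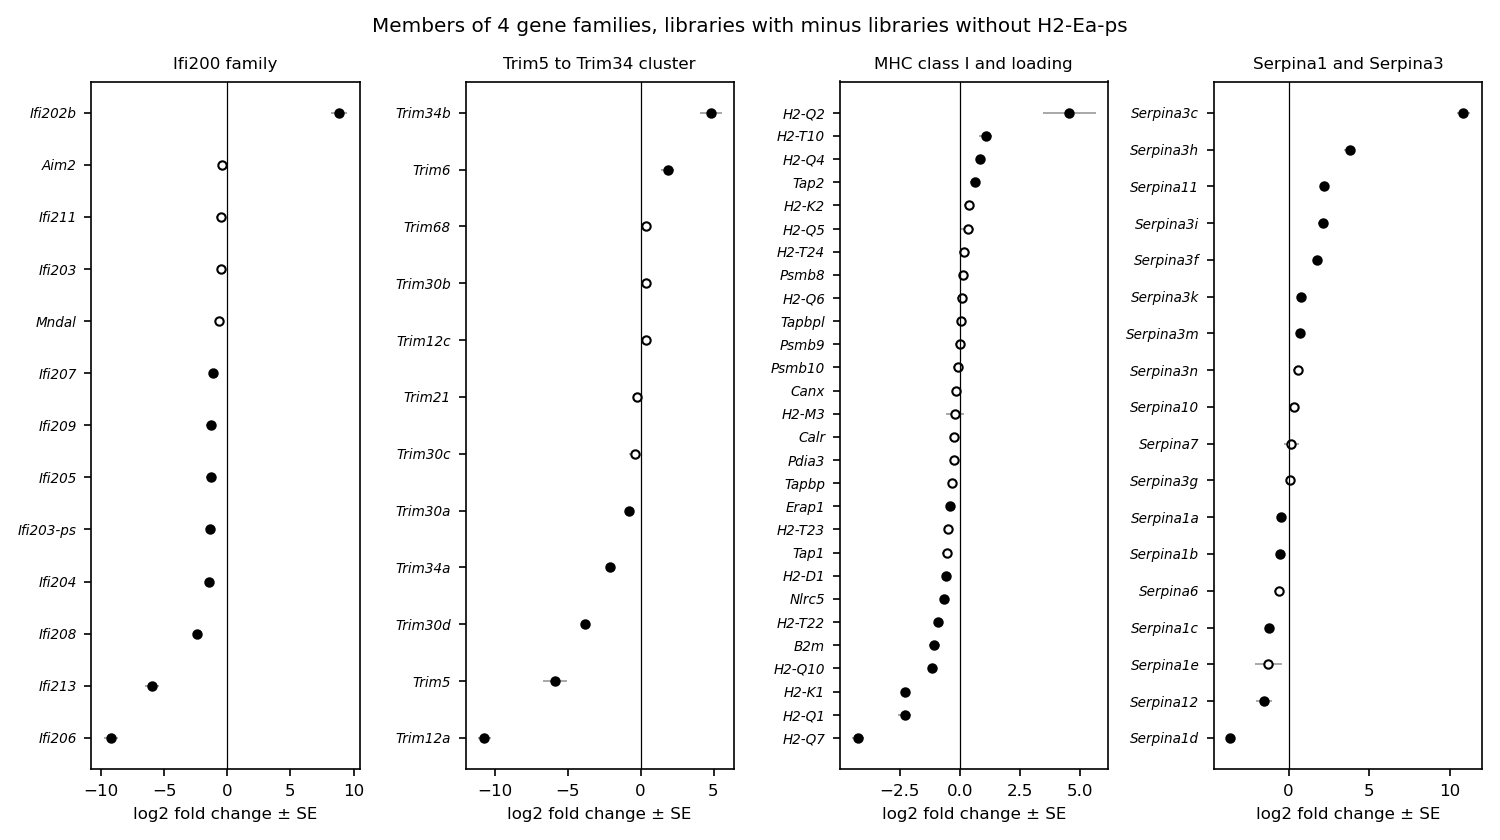
Log2 fold change with its standard error of each measured member of 4 gene families, libraries with minus libraries without H2-Ea-ps, with filled points for genes called at an adjusted p under 0.05. Ifi202b lies at 8.86 and Ifi206 at -9.24 in 1 family, Trim34b at 4.82 and Trim12a at -10.73 in another, and Serpina3c at 10.84 and Serpina1d at -3.66 among the Serpina genes.

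In the complement cascade and the Ly6 cluster, the difference between the sets also varied from gene to gene. C4a, which encodes the sex-limited protein and lies beside C4b in the MHC, had 116, 126, 112 and 96.9 CPM with H2-Ea-ps and 1.93 to 5.45 CPM (median 2.47) without, a log2 fold change of 5.37 ± 0.17 (adjusted p = 1.54e-11). C4b, the gene of complement component C4, had 1834 to 2354 CPM with and 1381 to 2631 CPM without, a log2 fold change of 0.09 ± 0.17 (adjusted p = 0.742), and its sign turned in 2 alternative fits. C1s2 and C1rb, paralogs of the C1 protease genes, had 14.0 to 18.1 CPM and 4.25 to 6.05 CPM with, against at most 0.284 and 0.238 CPM without. Ly6a, which encodes the stem cell antigen Sca-1 and is abundant on C57BL/6 and sparse on BALB/c lymphocytes, had 1.73, 0.447, 1.72 and 1.39 CPM with and 8.10 to 26.8 CPM (median 13.2) without. Its neighbour Ly6c1 had 4.82, 4.66, 4.03 and 3.78 CPM with and 0 to 0.585 CPM without. The log2 fold changes were -3.47 ± 0.38 and 4.24 ± 0.41, and 2 of 7 measured Ly6 genes were higher and 2 lower. Nnt, a mitochondrial transhydrogenase gene partly deleted in C57BL/6J mice, had 4.46 to 6.64 CPM with and 2.26 to 5.50 CPM without, which overlapped (adjusted p = 0.0525, between 0.0243 and 0.323 with 1 library left out). Gbp2b, an interferon-inducible GTPase gene, had 8.10 to 12.2 CPM with and 2.52 to 12.9 CPM without, and its call (adjusted p = 0.0375) was lost when library 1, 2, 3, 4, 5, 9, 11 or 12 was left out (up to 0.362).

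Among liver enzymes of drug and steroid handling, more genes were called lower than higher, and close paralogs moved in opposite directions. Cyp2c39 had 498, 400, 346 and 238 CPM with H2-Ea-ps and 5.08 to 11.8 CPM (median 5.72) without, a log2 fold change of 5.70 ± 0.19. Its neighbour Cyp2c69 and Cyp2c23, which lies farther along chromosome 19, were lower, with 0.894 to 4.03 CPM against 40.1 to 257 CPM and 12.9 to 21.9 CPM against 207 to 437 CPM. Cyp2b10, a gene induced through the nuclear receptor CAR, had 31.2, 33.1, 31.5 and 12.2 CPM with and 39.6 to 109 CPM without. Of 44 measured P450 genes of families 1 to 3, 21 were lower, 4 higher and 19 not called, with a median log2 fold change of -0.57. Of 39 conjugation enzymes, 23 were lower and 1 higher (median -0.69), led by the glutathione transferases Gstm3 (-3.47), Gstm7 (-1.14) and Gstm1 (-1.46). Gstm3 had 4.82, 2.87, 4.10 and 3.01 CPM with and 27.1 to 68.6 CPM without. The steroid sulfotransferase Sult2a4 had 12.1, 5.68, 5.97 and 2.24 CPM with and at most 0.203 CPM without. Among 12 carboxylesterases, Ces1b was the 1 higher gene, with 148 to 213 CPM against 43.9 to 62.1 CPM, and 6 were lower, among them Ces1f (-1.39) and Ces1c (-0.66). Conjugation enzymes summed to 2765 to 5140 CPM with and 4250 to 7658 CPM without, and the summed values overlapped.

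Major urinary proteins, which liver secretes as carriers of pheromones, were lower or not called. Mup3 had 104, 83.7, 175 and 107 CPM with H2-Ea-ps and 196 to 1215 CPM (median 587) without, a log2 fold change of -2.35 ± 0.33. Mup20 had 2.59, 0.894, 0.746 and 0.231 CPM with and 5.29 to 23.4 CPM without, and Mup6 had at most 0.0720 CPM with and 0 to 4.12 CPM without. Of 8 measured Mup genes, 6 were lower and none higher, with a median of -2.89 beside 0.03 over all genes tested.

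Interferon-stimulated genes, a programme of antiviral defence, were called lower more often than higher. Oasl2 had 7.99, 7.41, 9.55 and 6.87 CPM with H2-Ea-ps and 20.1 to 40.9 CPM (median 31.3) without, a log2 fold change of -1.93 ± 0.17. Oasl1 and Ifit3 were lower at -1.82 and -2.42, and neither overlapped. Of 41 measured genes, 23 were lower, 17 not called and 1 higher, which was Ifi44l, with 2.01 to 3.24 CPM with and 0 in all 8 libraries without. The summed level was 840 to 950 CPM with and 1112 to 1414 CPM without. Among 18 interferon-inducible GTPases, 9 were lower and 2 higher. Irgm2 had 39.3, 34.7, 31.3 and 33.2 CPM against 64.6 to 145 CPM, and Tgtp1 was lower at -2.70. Gbp11 was higher at 2.72, with 95.1, 21.8, 28.7 and 14.0 CPM against 1.82 to 10.9 CPM.

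Genes of hepatocyte metabolism were lower in part. Alb, which encodes albumin, had 61122, 63397, 59486 and 54374 CPM with H2-Ea-ps and 61701 to 152592 CPM (median 109760) without, a log2 fold change of -0.98 ± 0.19. Its call was lost without libraries 3, 5 and 6 (edgeR adjusted p = 0.0919). Of 13 hepatocyte markers, 6 were lower and none higher, among them Cyp2f2 (-2.26) and the urea cycle gene Ass1 (-0.99). Of 18 genes of fatty acid synthesis, 11 were lower and none higher (median -0.62). Fasn, the fatty acid synthase gene, had 888, 579, 789 and 836 CPM with and 1425 to 3012 CPM (median 2421) without, a log2 fold change of -1.42 ± 0.17, and Elovl6 and Acly were lower at -1.28 and -0.83. Of 43 genes for the urea cycle or for breaking down amino acids, 25 were lower and none higher (median -0.50), led by Kmo (-0.99), Gnmt (-1.31) and Hal (-1.22). Of 40 genes of fatty acid oxidation or targets of PPARA, the fasting-activated nuclear receptor, 10 were lower and 2 higher, with Cyp4a14 at -4.16 and Cd36 at -1.17. Acute phase genes were 3 higher and 1 lower of 29. Apcs, which encodes serum amyloid P, had 909, 1302, 731 and 1000 CPM with and 77.7 to 384 CPM (median 224) without, a log2 fold change of 2.21 ± 0.29. Saa1, singled out after its values were seen, had 203 to 584 CPM with and 6.72 to 383 CPM without and did not pass (adjusted p = 0.0532, between 0.0269 and 0.222 with 1 library left out). Hepatocyte markers summed to 88387 to 109871 CPM with and 104647 to 212087 CPM without.

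Most markers of dividing cells and granulocyte precursors were higher in the libraries with H2-Ea-ps. Of 30 proliferation genes, 26 were higher and none lower (median 1.09). Top2a, the topoisomerase of dividing cells, had 31.1, 66.0, 40.1 and 82.9 CPM with and 9.21 to 36.6 CPM (median 16.2) without, a log2 fold change of 1.63 ± 0.17. Mcm5 and Mki67 were higher at 1.35 each, and all 3 overlapped between the sets. The list summed to 286 CPM in library 1 at 6 °C, below libraries 10 and 11 at 29 °C without H2-Ea-ps (339 and 330 CPM). Of 12 granulocyte precursor markers, 10 were higher and none lower (median 2.13). Camp, the cathelicidin of neutrophil granules, had 22.8, 46.7, 45.4 and 87.5 CPM with and 0.836 to 24.8 CPM (median 8.68) without. Fcnb and Ctsg were higher at 2.40 and 2.46. The granulocyte precursor list summed to 1148 to 3696 CPM with and 28.5 to 1101 CPM without, and library 4 held the 28.5. Of 12 markers of mature neutrophils, 3 were higher, and Ly6g had 4.82, 8.30, 9.18 and 12.4 CPM against 0.0836 to 3.39 CPM. Of 15 stellate cell and fibroblast markers, 7 were higher and none lower, with Lum at 2.18, Pdgfra at 0.94 and Col1a2 at 1.31. Lum, which encodes the matrix proteoglycan lumican, had 51.3, 33.2, 23.5 and 30.9 CPM with and 4.18 to 10.1 CPM without.

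Markers of resident macrophages and lymphocytes were lower or mixed. Adgre1, the F4/80 antigen of Kupffer cells, had 18.4, 17.8, 16.8 and 15.7 CPM with H2-Ea-ps and 31.5 to 78.6 CPM (median 56.1) without, a log2 fold change of -1.69 ± 0.18. Marco, a scavenger receptor, had 0.895 to 6.40 CPM with and 16.8 to 68.7 CPM without. Ccr2, the receptor that guides monocytes into tissue, was the 1 higher gene of 18 Kupffer cell and macrophage markers, with 23.9 to 35.4 CPM against 6.27 to 23.2 CPM, and 7 were lower. Of 11 B cell and plasma cell markers, 5 were lower and none higher, with Ighd at -2.42 and Cd79b at -1.51. Of 15 T and NK cell markers, 6 were lower, with Trac at -2.14 and Lck at -1.26, and Nkg7 was higher, with 3.24 to 12.5 CPM against 1.51 to 6.14 CPM. Of 11 erythroid markers, 5 were lower and none higher. Klf1, the master regulator of red cell genes, had 0.504, 0.128, 0.597 and 0.0772 CPM with and 1.22 to 3.97 CPM without.

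**Figure D4:**
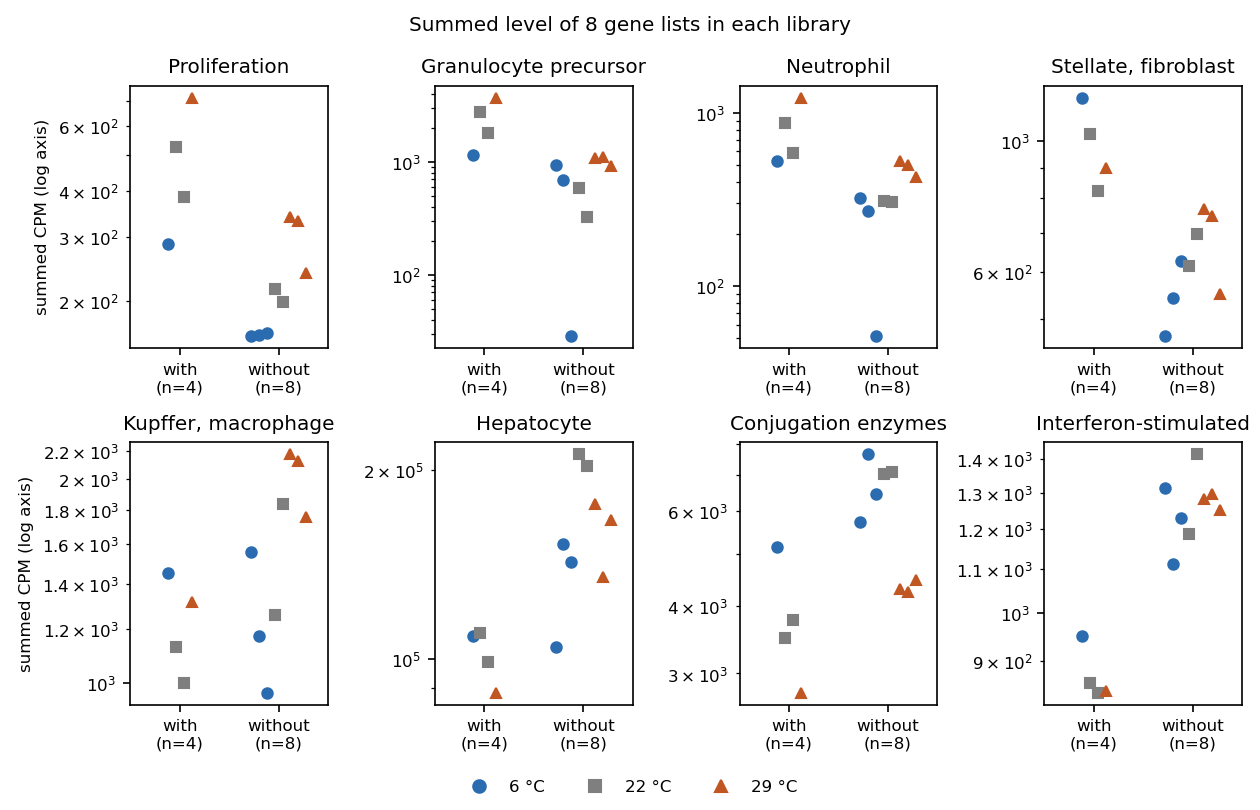
Summed CPM of 8 gene lists in each library on a log axis, where each point is 1 library, its shape and colour give the housing temperature, and the 4 libraries with H2-Ea-ps stand left of the 8 without. Interferon-stimulated genes lie between 840 and 950 CPM with and between 1112 and 1414 CPM without, whereas the summed Kupffer cell and macrophage markers of the sets overlap.

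Pseudogenes, which are inactive copies of genes, held some of the highest fold changes. Of 370 pseudogenes tested, 87 were higher and 26 lower, or 30.5%, against 23.5% of 13083 protein-coding genes and 16.0% of 980 long non-coding RNAs. Processed pseudogenes, which are copies of spliced messenger RNAs, were called with a log2 fold change of at least 2 in either direction 50 times, 45 of them higher. A pseudogene near 0 in the libraries without H2-Ea-ps could pass the filter on low counts only through the libraries with it. The 45 and the share of 30.5% may thus be set in part by the filter. The transcripts of 27 of the 50 shared at least 50% of their 31-base words with a tested protein-coding gene. For 11 of the 27 the coding gene was called in the opposite direction, for 3 in the same direction and for 13 it was not called. The pairs below were singled out after their values were seen. Gm13394, a copy of the glycolysis gene Gapdh, had 28.1, 19.7, 17.5 and 20.1 CPM with H2-Ea-ps and 0 to 0.185 CPM without, while Gapdh had 8.06 to 23.7 CPM with and 5.43 to 138 CPM without (adjusted p = 0.277). Gm15459, a copy of the chaperone gene Hspa8, had 64.1, 103, 65.1 and 90.8 CPM with and 0.266 to 1.01 CPM without, while Hspa8 had 34.3 to 46.9 CPM with and 183 to 831 CPM without, a log2 fold change of -3.39 ± 0.35. Gm3375, a copy of the proteasome gene Psmb5, had 10.4, 7.47, 10.7 and 7.64 CPM with and at most 0.0569 CPM without, and Psmb5 had 4.61 to 6.79 CPM with and 6.21 to 17.4 CPM without. Added together, Gm3375 and Psmb5 had 15 ± 1.81 CPM with and 14.1 ± 3.85 CPM without (mean ± SD, n = 4 and n = 8). Gm15459 and Hspa8 together had 121 ± 22.6 CPM with and 431 ± 259 CPM without.

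The reference sequences show how close such copies are. Without a gap, Gm13394 and the Gapdh coding sequence differ at 1 of 1000 aligned bases, and Gm15459 and the Hspa8 coding sequence at 5 of 1941. The stretches printed here are 120 bases of GENCODE M21 transcripts on GRCm38, with the differing base in capitals, which is A424C for Gapdh and G114A for Hspa8, counted from 1 at the start codon and with the coding gene's base first. A read without such a base cannot be told apart between the copies, so the counts of these genes are uncertain.
Gapdh (chromosome 6), coding bases 307 to 426: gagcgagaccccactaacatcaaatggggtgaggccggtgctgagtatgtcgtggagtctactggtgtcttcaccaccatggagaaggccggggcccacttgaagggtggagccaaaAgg
Gm13394 (chromosome 2), transcript bases 229 to 348: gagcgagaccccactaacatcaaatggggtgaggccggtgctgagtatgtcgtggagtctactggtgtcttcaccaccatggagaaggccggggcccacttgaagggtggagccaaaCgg
Hspa8 (chromosome 9), coding bases 1 to 120: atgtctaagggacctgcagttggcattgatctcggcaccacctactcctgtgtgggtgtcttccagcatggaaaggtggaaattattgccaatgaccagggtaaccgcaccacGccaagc
Gm15459 (chromosome 5), transcript bases 1 to 120: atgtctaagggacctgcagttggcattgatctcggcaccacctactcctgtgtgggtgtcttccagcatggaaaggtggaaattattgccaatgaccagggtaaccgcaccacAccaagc

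Ribosomal protein genes, which have many processed copies, were 13 lower, 3 higher and 44 not called of 60 measured. Their median log2 fold change was 0.13, and over all genes tested 11.3% were lower and 11.2% higher. Rps2, Rpl26 and Rps28 were the called members with the lowest p. Rps2 had 1.37, 1.47, 1.72 and 1.70 CPM with H2-Ea-ps and 53.8 to 118 CPM (median 63.3) without, a log2 fold change of -5.73 ± 0.19. Rpl26 had 0.447 to 1.19 CPM with and 10.9 to 20.9 CPM without, and Rps28 had 0.575 to 2.08 CPM with and 13.9 to 19.7 CPM without. Eno1, whose copy Eno1b had counts only with H2-Ea-ps, was lower at -1.62, with 19 to 33.7 CPM against 41.2 to 124 CPM. Tpm3-rs7, related to the tropomyosin gene Tpm3, had 14.5, 15.7, 17.4 and 18.7 CPM with and 0.0678 to 0.873 CPM without. Klhl33, a kelch-like gene, had 22.0, 10.4, 21.6 and 5.25 CPM with and at most 0.556 CPM without. The olfactory receptor gene Olfr1033 had 0.0639 to 0.149 CPM with and 4.43 to 18.1 CPM without.

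**Figure D5:**
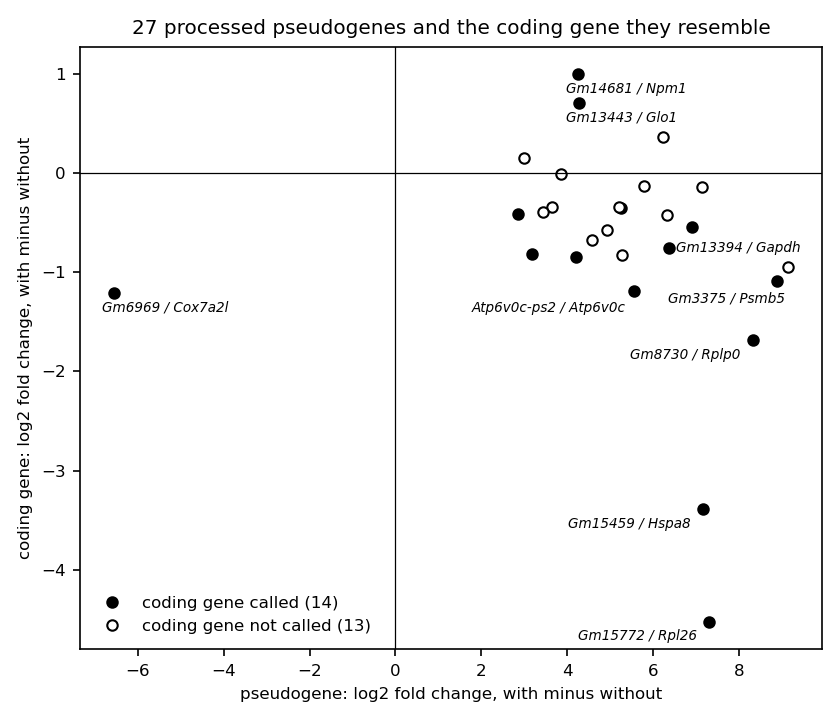
Log2 fold change, libraries with minus libraries without H2-Ea-ps, of 27 processed pseudogenes on the horizontal axis and of the protein-coding gene that shares most of their sequence on the vertical axis, with filled points where the coding gene was called. The pair of Gm15459 and Hspa8 lies at 7.16 and -3.39, and 14 of the 27 coding genes were called.

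Called genes were spread over all chromosomes, with 18.9% (chromosome 16) to 26.1% (chromosome 14) of tested genes called. Of 478 genes with a position that were called at a log2 fold change of at least 2 in either direction, 275 (57.5%) had another such gene within 1 Mb, against 5815 of 14588 other genes tested (39.9%). At a log2 fold change of at least 1 the shares were 76.9% and 73.6%. The span with the most such genes was chr17:33819027-36168537, with 15 of 115 genes tested, 11 higher and 4 lower, among them Rps28, H2-K1, C4a and H2-Q7. The Mup span of chromosome 4 held 8 among 12 tested, all 8 lower. The Serpina span of chromosome 12 held 8 among 14 tested, 6 of the 8 higher. A span of chromosome 9 with the neutrophil granule genes Camp, Ngp and Ltf held 7 among 85 tested, 5 of the 7 higher. A span of chromosome 1 held 6 among 15 tested. Of these 6, 3 were higher, namely Apcs, Olfr16 and Ifi202b, and 3 lower, Ifi206, Ifi213 and Ifi208. A span of chromosome 16 with the stefin genes Stfa2 and Stfa3 also held 6, among 26 tested, 4 of the 6 higher. Over all genes tested the share was 3.21%, and each span was drawn around such genes, which raises its share. Every other such span held 5 or fewer. Ngp, Ltf, Olfr16, Ifi208, Stfa2 and Stfa3 were singled out after their values were seen.

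The test of whether the difference between the sets changed with housing temperature rested on few libraries. The interaction of split and temperature was called for 21 of 15406 genes (0.136%), and the count ran between 0 (without library 5) and 430 (without library 3) with 1 library left out. At 6 and 29 °C the set with H2-Ea-ps is 1 library each, whose spread is taken to be that of the others. A low number of calls therefore does not show that few genes changed with temperature. Dusp1, a phosphatase gene of the immediate early response, was singled out after its values were seen and had 16.9 CPM in library 1 and 154 to 193 CPM in the other 3 libraries with H2-Ea-ps, against 104 to 352 CPM in the 8 without. Slc25a30, a mitochondrial carrier gene singled out in the same way, had 22.5, 49.9, 52.5 and 21.5 CPM with and 18.2 to 47.3 CPM without, and its difference in log2(CPM + 1) was 0.14 at 6 °C, 1.13 at 22 °C and -1.0 at 29 °C. Both had an adjusted p of 0.0231 for the interaction.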

How the data were processed

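Total RNA for 12 liver libraries of tumour-bearing mice was depleted of ribosomal RNA and sequenced, according to the labels. For 55421 genes the authors deposited raw, unnormalised whole-number counts. STAR 2.6.1a, bcl2fastq and DESeq2 1.44.0, and the build GRCm38, are named in the submitters' processing notes, whereas how reads were counted, and whether by strand, is not given in the sources used here. Housing temperature came from the labels, and the split into libraries with and without H2-Ea-ps came from the counts. The members and lists were chosen with earlier results of these data known.

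The counts of the 12 libraries were fitted in edgeR 4.0.16 (R 4.3.3) with temperature and split as terms, which left 8 residual degrees of freedom. Filtering was by filterByExpr, scaling by TMM, and tests were robust quasi-likelihood and two-sided. Adjusted p-values (Benjamini-Hochberg) were taken over all 15406 genes, with a threshold of 0.05. CPM values use TMM-scaled library sizes except where given as CPM of total counts, and filtering needs a gene to be expressed in enough libraries, so a gene high in 1 set passes more easily than a gene low in both. Summed list levels are on the TMM-scaled CPM. A log2 fold change of a gene at 0 in 1 set depends on the prior count, and for such genes a bound against 3 counts over the absent set is given. Floors and bounds cover counting error only. Positions came from GENCODE M21, which matched 54587 identifiers by version, and 113 symbols occur more than once. In 18 pairs of libraries of the same temperature, chi-square per degree of freedom over genes was 13.8 to 150, so none of these pairs was 1 library deposited again, and pairs across temperatures were not compared.

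Named genes were the 5 markers (H2-Ea-ps, Ifi202b, Ifi206, Trim12a, Serpina1d) and 11 immune or strain-related genes always, then the 8 highest and 8 lowest log2 fold changes among called protein-coding genes whose mean log2 CPM reached 1, with sets that did not overlap and a regular symbol, then genes with counts in 1 set only, then up to 3 called members with the lowest p of each list described. Others are said to have been singled out. One gene that this rule names is not reported here. On simulated counts for 15407 genes in this design, 73 of 100 genes changed 2-fold and 97 of 100 changed 4-fold were recovered, with 7 calls among unchanged genes. The changed genes were a small part of all and were drawn from genes above a minimum mean count. No difference in RNA quality between the sets was simulated. The recovery therefore does not cover genes of low count or such a difference. Alternatives used DESeq2 1.42.0 and limma 3.58.1, other scalings, filters and library subsets.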

Additional observations from a re-analysis of the deposited data

Results flagged for a closer look

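Within each set of libraries, a value was marked where the highest or lowest library stood apart from the rest by Dixon's test, which marks about 1 set of values in 20 by chance. Among 200 sets of values of named genes, 18 were marked, 6 within the libraries with H2-Ea-ps and 12 within those without. In the libraries with H2-Ea-ps, library 1 stood highest for mt-Rnr2 (20837 CPM, next 6920), Ifit3 (4.03 CPM, next 2.11), Mup6 (0.0720 CPM, next 0) and Trim5 (0.0720 CPM, next 0). Where all other libraries of a set are at 0, as for Mup6 and Trim5, any count is marked. The rate of 1 in 20 does not hold there. Library 9 stood lowest for Cyp2b10 (12.2 CPM, next 31.2) and highest for Gapdh (23.7 CPM, next 9.10).

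In the libraries without H2-Ea-ps, library 11 stood highest for H2-Q2 (12.1 CPM, next 0.953) and Ccr2 (23.2 CPM, next 12.9) and lowest for Ces1b (43.9 CPM, next 56.0). Library 6 stood highest for Nnt (5.50 CPM, next 3.65) and Gbp2b (12.9 CPM, next 5.44). Library 2 stood highest for Serpina3c (0.797 CPM, next 0.341) and Saa1 (383 CPM, next 146). Library 3 stood highest for Cd36 (139 CPM, next 81.9), library 4 for Ass1 (1953 CPM, next 1171), library 5 for Gm13394 (0.185 CPM, next 0.0569), library 10 for Gm3375 (0.0569 CPM, next 0) and library 12 for Trim34b (0.543 CPM, next 0.0569). For Gm3375 all other libraries of the set were at 0, so any count would be marked.

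Slc25a30 and Dusp1 were called in the test of the interaction of split and housing temperature across all genes (edgeR adjusted p = 0.0231 each). At 6 and 29 °C the set with H2-Ea-ps is 1 library each. A change with temperature therefore cannot be told from 1 library that stands apart. Dusp1 had 16.9 CPM in library 1, against 154 to 193 CPM in libraries 7, 8 and 9. The difference of Slc25a30 at 29 °C rested on library 9 alone. The number of genes called in that test was 21 and fell to 0 when library 5 was left out.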

How the results depend on the processing

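No paired analysis was possible because the replicate numbers in the labels run from 1 to 12 and no 2 temperature groups share one. Of 97 named calls, 72 stayed past the threshold with the same sign under all 23 alternatives and 25 were lost under at least 1, of which 13 under an alternative other than 22 °C alone or a minimum fold.

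The total of 3455 calls (1718 higher, 1737 lower) stayed within 1.5 times under other scalings, filters and tools, with 4047 calls by DESeq2's Wald test and 3505 by limma. Without a temperature term there were 2073 (968 higher, 1105 lower) and without libraries 3, 5 and 6 there were 2048 (1000 higher, 1048 lower). Library sizes without mitochondrial genes, Gm26917 and the 10 most abundant genes gave 3177 higher and 1028 lower, with the median log2 fold change at 0.21. With a log2 fold change of at least 1 added there were 1373 calls (827 higher, 546 lower), 720 of them without overlap. In the 4 libraries at 22 °C alone, 3377 genes were called, all 3377 without overlap between 2 and 2 libraries. Of the 3358 main calls tested there, 3356 had the same sign and 2074 were called. These 4 libraries are also part of the main fit, so the shared sign is not independent of it. With 1 library left out, calls were 2479 to 3576 in all, 1226 to 1790 higher, 1253 to 1829 lower and 1222 to 1772 without overlap.

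Interaction calls were 7 with at least 1 CPM in at least 4 libraries and 0 to 430 with 1 library left out, against 21 in the full fit and 2151 genes at an unadjusted p under 0.05, and fits without library 1 or 9 were not run because a cell would be empty. Genes with counts in 1 set only were 25 at 0.5 CPM (15 with, 10 without), 10 at 2 CPM (6 and 4), 25 with up to 2 counts over the absent set (16 and 9) and 14 to 19 with 1 library left out (7 to 12 and 7 to 8). The share of genes with a large change near another was 57.5%, and 76.9% at a log2 fold change of 1. The sign turned for the log2 fold change of C4b, to -0.23 without libraries 3, 5 and 6 and -0.04 without replicate 6 (-0.04 to 0.28 with 1 library left out), and of Slc25a30, to -0.45 without libraries 3, 5 and 6, and the cause was not tested. Genes below about 0.2 to 0.4 CPM in single libraries rest on 3 counts or fewer.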
